A study of Mus musculus with 6 samples.

Results

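The resident tissue macrophage marker genes described here are 10 genes, F13a1, Cbr2, Mrc1, Dab2, Cd163, Pf4, Lyz1, Lyz2, Folr2 and Cx3cr1. All probe sets annotated to these symbols were taken, which gave 15 of the 22626 probe sets tested and 10 of the 12393 named genes. The list was drawn up with the difference between the study's groups in view, and several of its genes are among the largest increases, so the differences of the 10 genes are given as a description and were not tested. Expression was measured on Affymetrix Mouse430A_2 arrays, on which sets of short probes report transcript levels, with 1 array for each of 6 mouse testis cell samples. In 3 samples, titled spermatogonial stem cells, cells positive for a human CD4 surface marker had been isolated with magnetic beads from the testes of Stra8-CD4HAglo transgenic mice, each made from 50 pooled males. The other 3 samples are titled total testicular cells, whereas their source description names cells negative for the marker from the same transgenic mice. Every sample thus came from mice that express human CD4 from a shortened promoter of the germ cell gene Stra8. Age and strain are not given in the labels. Nothing in the labels ties a replicate to its own animals, so the spread between arrays may be partly technical.

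Macrophages that live in a tissue are long-lived phagocytes that clear dying cells and debris, and they are recognised by scavenger and endocytic receptors on their surface and by secreted enzymes. In the testis they lie in the interstitium beside the Leydig cells, which make testosterone, and around the seminiferous tubules. Mrc1 (the mannose receptor, CD206) and Cd163 (a scavenger receptor for haemoglobin bound to haptoglobin) are commonly used to recognise such cells, Folr2 is a folate receptor, and Dab2 is an adaptor that links cargo receptors to clathrin. F13a1, Pf4 and the lysozymes are secreted products, and F13a1 and Pf4 are also products of platelets and their precursors. Cx3cr1 is the receptor for the chemokine fractalkine, encoded by Cx3cl1. Cbr2 is a carbonyl reductase.

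Values are log2 probe set summaries as deposited, for which a background of 2.15 was taken from 27 bacterial control probe sets. Between 79.7% and 84.1% of probe sets lay above it on each array. Stem cell replicate 1 stood apart from the other stem cell arrays for these genes, and its hybridization controls were also brighter (8.96 against 8.37 to 8.51 on the other 5 arrays). By limma with Benjamini-Hochberg adjustment (adjusted p under 0.05), 316 probe sets (1.4%) were higher and 34 (0.15%) lower in stem cells, a split that became 363 and 91 with each array centred on its median and 844 and 487 with centring on the hybridization controls. These 2 scalings moved the median difference of all probe sets to −0.15 and −0.20, against −0.03 as deposited. The labelled cell type was checked against 11 measured markers of undifferentiated spermatogonia: 0 were called by limma, and Lin28a and Cdh1 were above background on no array. At an unadjusted p under 0.05, 1 was higher and 1 lower, where 11.8% of all genes were higher and 13.1% lower. Id4, an inhibitor of DNA binding by other transcription factors, averaged 7.44 in stem cells and 8.0 in total testicular cells, and Itga6, a laminin receptor chain, 3.86 and 2.88 (limma adjusted p = 0.232 and 0.0739).

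All 15 probe sets were higher in the stem cell samples on average, by between 0.28 and 4.83 on the log2 scale. For the probe set that represents each gene (the one with the highest mean over the 6 arrays), the median log2 difference over the 10 genes was 4.46, beside −0.05 over all 12393 genes. The lowest stem cell value lay above the highest total testicular cell value for 15 of the 15 probe sets, which holds for 13.5% of all probe sets. A log2 difference of at least 4 was found for 8 of the 15 (background 0.11%), and of at least 1 for 13 of the 15 (background 4.04%). Since the genes were chosen on this contrast, nothing is read from these shares. With 6 bulk samples, a smaller number of cells of a type cannot be told apart from less RNA per cell.

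**Figure D1:**
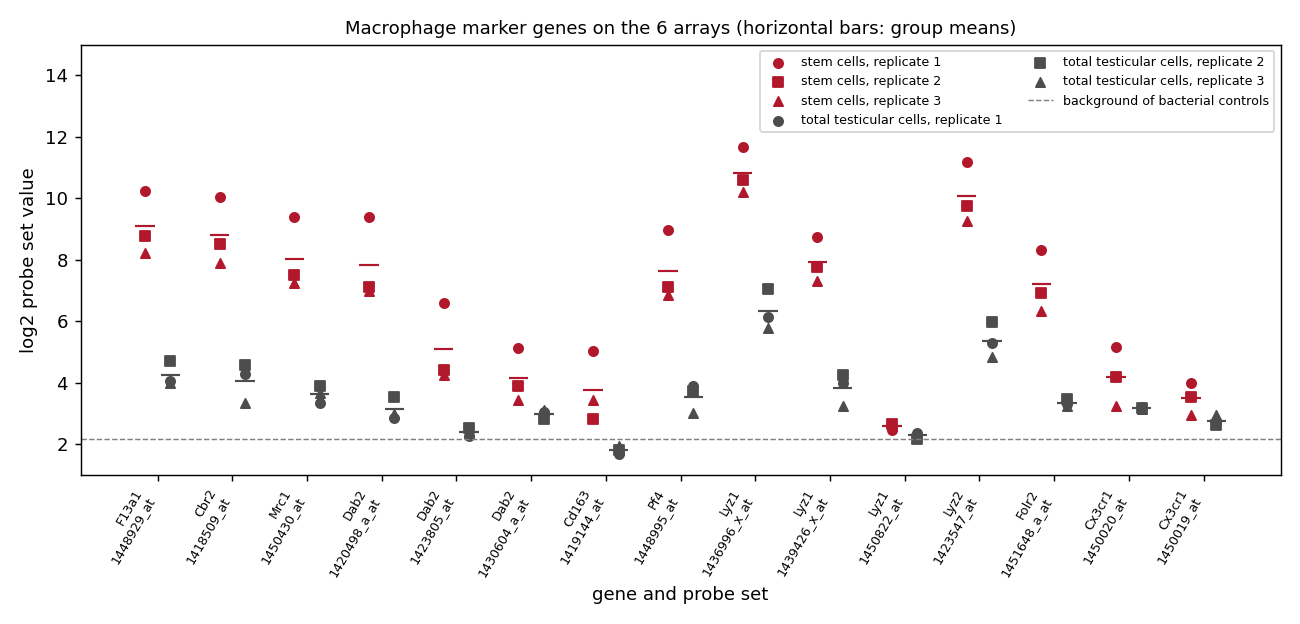
Log2 value (y axis) of the 15 probe sets of the 10 macrophage marker genes (x axis) on the 3 stem cell arrays (red, left of each pair) and the 3 total testicular cell arrays (grey, right), with group means as bars and the background of 2.15 as a dashed line. F13a1 lies between 8.22 and 10.24 on the stem cell arrays and between 3.99 and 4.70 on the total testicular cell arrays, whereas the Lyz1 probe set 1450822_at stays between 2.15 and 2.66 on all 6.

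The receptors Mrc1, Cd163 and Folr2 and the adaptor Dab2 were higher in stem cells by widely differing amounts. Mrc1 (probe set 1450430_at, mouse chromosome 2, GRCm38.p6 14229414 to 14332023) had log2 values of 9.38, 7.49 and 7.24 on the stem cell arrays, against 3.32, 3.90 and 3.65 on the total testicular cell arrays. Its means were 8.04 ± 1.17 and 3.63 ± 0.29 (SD, n = 3 each), a 21.3-fold difference, and the lowest stem cell array exceeded the highest other array by 3.33. Cd163 (1419144_at, chromosome 6, 124304636 to 124330529) had 5.02, 2.82 and 3.43 in stem cells and 1.67, 1.80 and 1.95 in total testicular cells. It was above background on the 3 stem cell arrays and on none of the others, so that its level in total testicular cells is only bounded. Against that background Cd163 was at least 3.06-fold higher in stem cells, and at least 1.97-fold without stem cell replicate 1.

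Folr2 (1451648_a_at, chromosome 7, 101839988 to 101857190) had 8.33, 6.93 and 6.34 in stem cells, against 3.31, 3.48 and 3.23 in total testicular cells. The 3 total testicular cell values lay within 0.25 of each other, and the difference of 3.86 is 14.5-fold. Dab2 (chromosome 15, 6299788 to 6440715) was read by 3 probe sets that moved by different amounts. The brightest, 1420498_a_at, had 9.40, 7.12 and 6.98 in stem cells and 2.86, 3.54 and 2.98 in total testicular cells, a difference of 4.71. Probe set 1423805_at had 6.59, 4.40 and 4.26 in stem cells and 2.25, 2.53 and 2.37 in total testicular cells, a difference of 2.70. Probe set 1430604_a_at differed by 1.15, with 5.11, 3.88 and 3.42 in stem cells and 3.05, 2.81 and 3.11 in total testicular cells. The 3 probe sets of Dab2 share a direction and the high position of stem cell replicate 1, while their fold differences run from 2.22 to 26.2.

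The secreted products gave the largest difference of any probe set on the array. F13a1 encodes the A subunit of coagulation factor XIII, a transglutaminase that crosslinks fibrin (1448929_at, chromosome 13, 36867178 to 37050244). It had 10.24, 8.78 and 8.22 in stem cells, against 4.06, 4.70 and 3.99 in total testicular cells, and its difference of 4.83 (28.4-fold) ranked 1 among all 22626 probe sets. Pf4, the chemokine platelet factor 4 (1448995_at, chromosome 5, 90772435 to 90773383), had 8.95, 7.10 and 6.84 in stem cells and 3.88, 3.72 and 3.02 in total testicular cells, a 17-fold difference. Of the 7 measured marker genes of megakaryocytes and platelets, the other known source of both transcripts, 0 were called by limma and 0 had an unadjusted p under 0.05. Their summed linear level was 48.4 to 62.2 on the stem cell arrays and 47.8 to 52.9 on the total testicular cell arrays, and Clec1b was above background on no array. Itga2b, the platelet integrin chain, averaged 3.31 in stem cells and 3.50 in total testicular cells, and Gp9, a platelet adhesion receptor chain, 3.28 and 3.18 (limma adjusted p = 0.564 and 0.778).

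The lysozymes Lyz2 and Lyz1 are neighbours on mouse chromosome 10 (GRCm38.p6 117277541 to 117282272 and 117287795 to 117292868), with 5522 bases between them. Lyz2 is the lysozyme of macrophages and Lyz1 that of intestinal Paneth cells. Lyz2 (1423547_at) had 11.17, 9.74 and 9.26 in stem cells, against 5.30, 5.97 and 4.82 in total testicular cells, a difference of 4.69. Lyz1 was read by 3 probe sets that went apart. Probe set 1436996_x_at had 11.67, 10.58 and 10.21 in stem cells and 6.14, 7.04 and 5.77 in total testicular cells, a difference of 4.50. Probe set 1439426_x_at had 8.74, 7.75 and 7.32 in stem cells and 4.0, 4.23 and 3.23 in total testicular cells, a difference of 4.12. The suffix _x_at marks probe sets in which some probes also match other transcripts. The third, 1450822_at, carries no such mark and had 2.46, 2.66 and 2.63 in stem cells and 2.37, 2.15 and 2.37 in total testicular cells, all within 0.51 of background. The lysozyme probe sets marked _x_at therefore ranked the 6 arrays in the same order as Lyz2, whereas the third did not, and an increase of Lyz1 itself is uncertain.

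**Figure D2:**
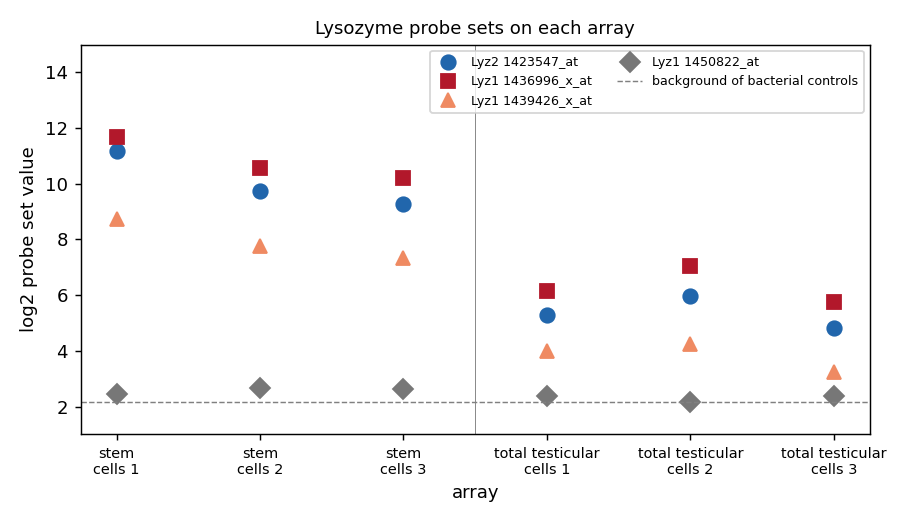
Log2 value (y axis) of the Lyz2 probe set and the 3 Lyz1 probe sets on each of the 6 arrays (x axis, stem cells left of total testicular cells), with the background of 2.15 as a dashed line. Lyz2 and the Lyz1 probe sets marked _x_at lie at 7.32 or above on the stem cell arrays and at 7.04 or below on the total testicular cell arrays, in the same order of arrays, while 1450822_at stays near the dashed line.

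Cbr2 (1418509_at, chromosome 11, 120729485 to 120732025) had 10.03, 8.50 and 7.90 in stem cells, against 4.28, 4.56 and 3.35 in total testicular cells, a 26.8-fold difference. Cx3cr1 (chromosome 9, 120048683 to 120068296) had the smallest difference of the 10 genes. Its brighter probe set, 1450020_at, had 5.15, 4.17 and 3.25 in stem cells and 3.20, 3.16 and 3.13 in total testicular cells. The difference of 1.02 rests mainly on stem cell replicates 1 and 2, since replicate 3 exceeded the highest total testicular cell array by only 0.04. The other, 1450019_at, had 4.0, 3.53 and 2.95 in stem cells and 2.71, 2.63 and 2.95 in total testicular cells, so that the groups met at 2 decimals. Without stem cell replicate 1 the Cx3cr1 difference was 0.54.

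**Figure D3:**
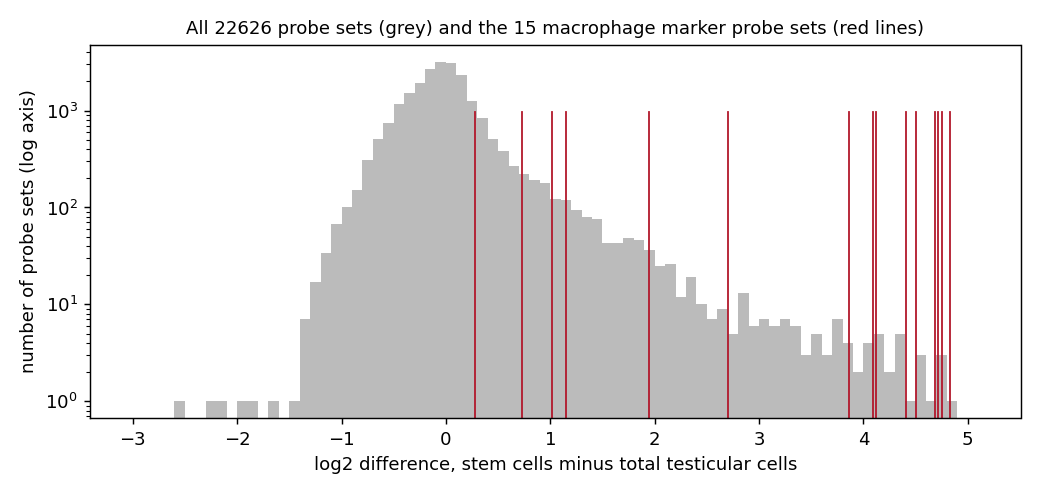
Number of probe sets (y axis, log scale) by log2 difference of stem cells minus total testicular cells (x axis) for all 22626 probe sets (grey), with the 15 macrophage marker probe sets as red lines. Of these lines, 8 stand at 4 or more and 2 stand below 1, namely Lyz1 1450822_at at 0.28 and Cx3cr1 1450019_at at 0.73.

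Among the stem cell arrays, the 10 genes shared an uneven pattern. Relative to its total testicular cell mean, the median gene stood at 5.58, 3.93 and 3.73 on stem cell replicates 1, 2 and 3. Replicate 1 was the highest stem cell array for 10 of 10 genes, which held for 30.0% of all genes, and replicate 3 the lowest for 9 of 10, which held for 28.3%. Cd163 was the exception, with 2.82 on replicate 2 and 3.43 on replicate 3. The excess of replicate 1 over the mean of the other stem cell arrays ran from 1.27 for Lyz1 to 2.35 for Dab2, with a median of 1.78, beside −0.07 over all genes. Without replicate 1 the median difference of the 10 genes was 3.83. For 5 genes the fold moved by over 1.5 times: without replicate 1 it was 15.2-fold for Dab2, 13.3-fold for Mrc1, 10.8-fold for Pf4 and 17.6-fold for Cbr2, and for Cd163 the bound given above. F13a1 was then 19-fold, Lyz2 17.6-fold, Lyz1 16.9-fold and Folr2 9.83-fold higher. Fluidics rounds were inferred from the start times in the file headers, by grouping arrays that started under 15 minutes apart, which gave 3 rounds. By this grouping stem cell replicate 1 fell in round 1 with total testicular cell replicates 1 and 3, and replicates numbered 2 in round 3. Within round 1 the median difference of the 10 genes was 5.80 and within round 3 it was 3.56, beside −0.09 and −0.05 over all genes. Stem cell replicate 3 was alone in the inferred round 2.

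The total testicular cell arrays also differed among themselves in the same genes, by less. Replicate 2 was their highest array for 7 of the 10 genes (36.6% of all genes) and replicate 3 their lowest for 7 of the 10 (36.2% of all genes). For Lyz2 the step between them was 1.15, for Cbr2 1.21 and for F13a1 0.71. The median SD of the 10 genes was 0.38 over these 3 arrays, against 0.13 over all genes, and 1.07 over the stem cell arrays, against 0.24 over all genes.

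Genes of another cell type followed the same order of arrays. The 4 measured Leydig cell genes were highest on stem cell replicate 1 and lowest on replicate 3 in 4 of 4 cases, and among total testicular cell arrays they were highest on replicate 2 and lowest on replicate 3 in 4 of 4 cases. Cyp17a1, an enzyme of androgen synthesis, had 10.88, 9.86 and 8.94 in stem cells and 8.27, 8.46 and 7.17 in total testicular cells (difference 1.92, limma adjusted p = 0.0742). Cyp11a1, which cleaves the cholesterol side chain, differed by 1.64 (limma adjusted p = 0.137). By limma 0 of the 4 Leydig genes were called, and 4 were higher at an unadjusted p under 0.05, as were 11.8% of all genes. Their summed linear level was 748 to 3067 on the stem cell arrays and 240 to 591 on the total testicular cell arrays. That of the 10 macrophage genes was 2830 to 10040 on the stem cell arrays and 160 to 307 on the total testicular cell arrays. Without Lyz1, whose probe set may read other transcripts, it was 1640 to 6790 on the stem cell arrays and 105 to 176 on the total testicular cell arrays. Sums over different probe sets do not compare the abundance of the 2 lists. The part of Leydig cells, of the brighter controls of stem cell replicate 1 and of the fluidics rounds in the macrophage values was not tested.

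Other resident macrophage markers, taken from a list of 25 that holds none of the 10 genes, were mostly higher as well. This list, too, was chosen with earlier results of these data known. It was tested on the same arrays and contrast, so its counts are no independent check of the 10 genes. Of 23 measured, 13 were higher and 0 lower in stem cells by limma over all probe sets, beside a background of 1.63% of genes higher and 0.137% lower. At an unadjusted p under 0.05, 16 were higher and 1 lower, beside 11.8% and 13.1% of all genes. The largest of these differences were those of Csf1r, through which CSF1 keeps macrophages alive (4.76, limma adjusted p = 0.00488), C1qc (4.58) and C1qa (4.38), chains of complement component C1q, and Tyrobp, an adaptor of immune receptors (4.55). The smallest were those of Msr1, a scavenger receptor (0.02, its 4 probe sets from −0.65 to 1.15), Marco, another scavenger receptor (−0.04), Siglec1, a sialic acid receptor (−0.05), and Aif1 (−0.11), with limma adjusted p from 0.694 to 0.957. Without total testicular cell replicate 1 the count of higher genes was 8, and with the fluidics module as a block, which leaves 1 stem cell and 1 total testicular cell array on a common module, it was 0. The median difference of the 23 was 2.24, and on stem cell replicates 1, 2 and 3 their median deviation was 3.16, 2.10 and 1.52.

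No member of 4 lists of other blood-derived cells passed the test. By limma 0 of 12 genes of monocytes and neutrophils, 0 of 6 of dendritic cells, 0 of 8 of mast cells and 0 of 8 of lymphocytes were called. At an unadjusted p under 0.05 these lists held 0, 0, 1 and 0 higher genes. Plac8, a gene of monocytes, averaged 4.85 in stem cells and 4.77 in total testicular cells, and Flt3, a receptor of dendritic cell precursors, 3.90 and 3.99. Mean values in total testicular cells were at or under background for 6 of the 12 monocyte and neutrophil genes and 2 of the 6 dendritic cell genes, so that small changes could be missed. Of 5 measured markers of microglia, the macrophages of the brain in which Cx3cr1 is also abundant, 1 was called higher by limma, P2ry12, a receptor for ADP, and 3 were higher at an unadjusted p under 0.05. P2ry12 had 7.09, 5.16 and 4.90 in stem cells and 2.48, 2.48 and 2.42 in total testicular cells (difference 3.26, limma adjusted p = 0.0197). Gpr34 averaged 3.91 in stem cells and was above background on none of the total testicular cell arrays (limma adjusted p = 0.0775). Olfml3 differed by 1.45, Tmem119 by 0.14 and Sall1 by −0.20 (limma adjusted p = 0.101, 0.621 and 0.476). The summed linear level of the 5 was 73.7 to 266 on the stem cell arrays and 32.1 to 34.95 on the total testicular cell arrays.

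Among the remaining somatic lists, 0 of 9 endothelial and 0 of 6 peritubular myoid genes were called by limma (0 and 1 higher at an unadjusted p under 0.05). Of 9 Sertoli cell genes 1 was called, Clu (clusterin, a secreted chaperone), with 11.04, 9.52 and 10.31 in stem cells and 8.34, 8.35 and 8.14 in total testicular cells (difference 2.02, limma adjusted p = 0.0234). The summed linear level of the Sertoli cell genes was 866 to 2233 on the stem cell arrays and 386 to 451 on the total testicular cell arrays. Clu carried this gap, since the other 8 summed to 123 to 133 on the stem cell arrays and 104 to 125 on the total testicular cell arrays. Of 11 genes of meiotic and haploid germ cells 0 were called and 1 was lower at an unadjusted p under 0.05. Their summed linear level was 32420 to 38630 on the stem cell arrays and 33620 to 40050 on the total testicular cell arrays. Prm1, which packs sperm DNA, averaged 13.06 in stem cells and 13.11 in total testicular cells, close to the highest value of the data. The brightest genes weigh most in this sum, and whether values this high still follow the amount of RNA was not tested. The median difference of the 11 genes was −0.14, beside −0.05 over all genes.

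**Figure D4:**
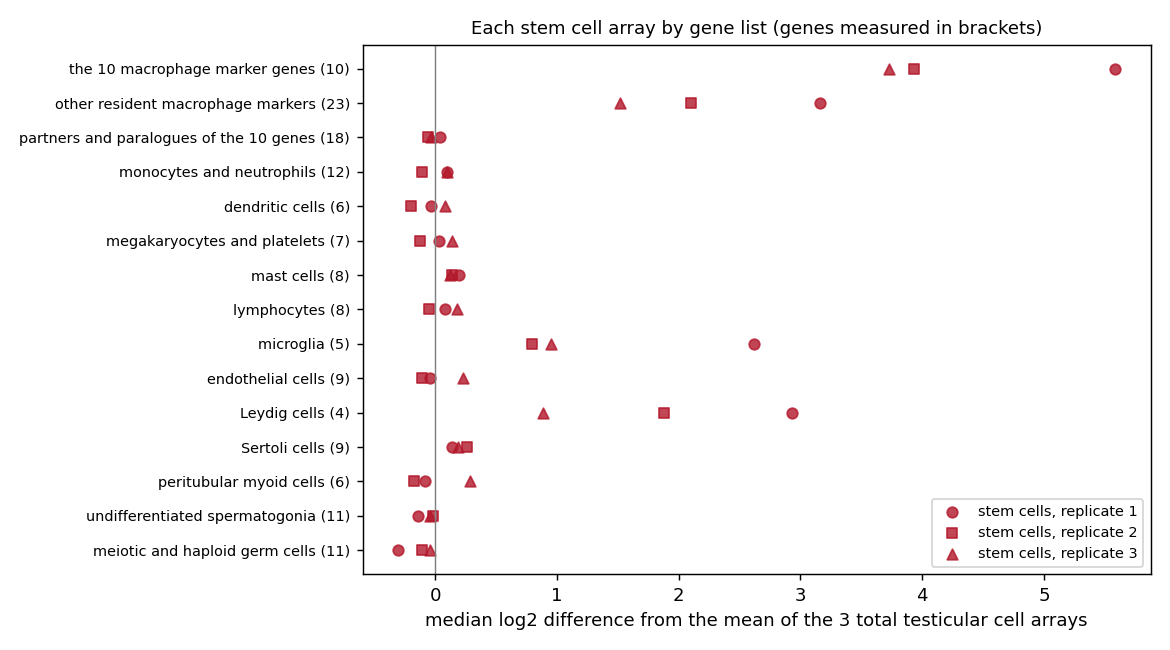
Median log2 value relative to the 3 total testicular cell arrays' mean (x axis) for each gene list (y axis, number of genes measured in brackets) on stem cell replicates 1, 2 and 3 (circle, square and triangle). The 10 macrophage marker genes stand at 5.58, 3.93 and 3.73, the Leydig cell genes at 2.93, 1.88 and 0.89, and the monocyte and neutrophil, dendritic cell, and platelet lists lie between −0.20 and 0.14.

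The partners and paralogues of the 10 genes had a median difference of 0.03 over 18 measured. By limma 0 were called, while at an unadjusted p under 0.05 there were 4 higher and 3 lower, beside 11.8% and 13.1% of all genes. F13b, the B subunit of factor XIII, had means of 1.88 in stem cells and 1.76 in total testicular cells, under background on all 6 arrays, as had Ppbp, a platelet chemokine beside Pf4, with 1.93 and 1.88. Mrc2, a relative of the mannose receptor that binds collagen, averaged 2.45 and 2.55. Dab1, the neuronal relative of Dab2, averaged 3.30 and 3.22, and Lrp2, an endocytic receptor that Dab2 serves in the kidney, 2.09 and 2.44. Cx3cl1, the ligand of Cx3cr1, averaged 2.91 and 2.98. Hp, which encodes the haptoglobin whose haemoglobin complex Cd163 takes up, averaged 2.81 and 2.76.

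Hmox1, the enzyme that breaks down haem, had 5.91, 4.57 and 4.76 in stem cells and 3.55, 3.84 and 3.37 in total testicular cells, and did not pass (difference 1.5, limma adjusted p = 0.0606). Folr1, the folate receptor alpha, had 7.31, 6.82 and 6.04 in stem cells and 5.41, 5.74 and 5.04 in total testicular cells, without overlap and without passing (difference 1.33, limma adjusted p = 0.0694). Of the carbonyl reductases, Cbr3 differed by 1.00, Cbr1 by −0.29 and Cbr4 by −0.41 (limma adjusted p = 0.142, 0.303 and 0.210). The lysozyme-like genes of sperm were not higher in stem cells on average. Lyzl1 had 7.96, 8.54 and 8.51 in stem cells and 8.76, 8.78 and 8.84 in total testicular cells (difference −0.46, limma adjusted p = 0.161). Lyzl4 differed by −0.53 (limma adjusted p = 0.260), and stem cell replicate 1, the highest array for Lyz2, was the lowest for both.

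The nearest patterns to the 10 genes were sought by root mean square distance over the 6 arrays, between profiles centred on each gene's own total testicular cell mean. Against the mean profile of the 10 genes, the 8 closest of all other genes were Clec4n, Pltp, Cd53, Lcp1, Ctsb, Selenop, Evi2a and Fcgr2b, at distances of 0.12 to 0.23. Clec4n, a C-type lectin receptor, stood at 4.94, 3.34 and 3.17 above its total testicular cell mean on the stem cell arrays, beside 5.07, 3.46 and 3.11 for the mean of the 10. Gene by gene, Csf1r was the nearest to Lyz2 (0.07), to F13a1 (0.14) and to Cbr2 (0.16). Ly86 was nearest to Pf4 (0.09), Cd53 to Folr2 (0.13), Laptm5 to Mrc1 (0.14), Ctss to Lyz1 (0.20) and C1qc to Dab2 (0.21). Cd163 and Cx3cr1, which differed less, were nearest to Pla2g15 (0.16) and Zmpste24 (0.09). Within the list, Cbr2 and Lyz2 were 0.16 apart, F13a1 and Lyz2 0.17, and F13a1 and Cx3cr1 2.70.

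The sequences upstream of the transcription starts were read from RefSeq (GRCm38.p6), since the series concerns PU.1, a transcription factor of the ETS family that binds purine-rich sites in macrophage genes. Spi1, which encodes PU.1, had 5.37, 4.47 and 4.05 in stem cells and 3.41, 3.46 and 2.82 in total testicular cells (difference 1.40, limma adjusted p = 0.0684). Promoters were found for 10 of the 10 genes, as 13 windows of 250 bases before an annotated start. Each was searched on both strands for GAGGAA and GGAAGT, which share 4 bases where one runs into the other. At least 1 of these motifs lay in 10 of the 13 windows, beside 36.7% of all 32851 promoter windows. These 10 windows belong to 8 of the 10 genes, for which no share over all genes was computed. GAGGAA was in 6 of the 13 windows, against 23.3% of all, and GGAAGT in 6 of the 13, against 19.7% of all. The windows of Cd163 and Cx3cr1, and the downstream start of Folr2, hold neither set of letters, which says nothing of binding. These counts are a description, and neighbouring genes such as Lyz1 and Lyz2 share sequence. Shown here are the lysozyme pair, whose probe sets are difficult to separate, and Mrc1 and Folr2, whose windows hold several copies. Each is printed 5′ to 3′ along the gene, ending at the base before the start, with matches to either motif on either strand in capitals.
Lyz2, chr10:117282273-117282522, minus strand: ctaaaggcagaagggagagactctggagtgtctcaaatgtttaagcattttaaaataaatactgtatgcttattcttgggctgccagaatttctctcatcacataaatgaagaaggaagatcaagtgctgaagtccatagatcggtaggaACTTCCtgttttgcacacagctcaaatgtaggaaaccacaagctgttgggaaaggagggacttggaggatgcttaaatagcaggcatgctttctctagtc
Lyz1, chr10:117292869-117293118, minus strand: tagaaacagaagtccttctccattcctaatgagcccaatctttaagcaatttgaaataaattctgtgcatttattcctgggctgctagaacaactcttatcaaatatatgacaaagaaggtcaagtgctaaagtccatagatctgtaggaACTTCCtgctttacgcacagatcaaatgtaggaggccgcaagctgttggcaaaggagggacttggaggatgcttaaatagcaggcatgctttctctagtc
Mrc1, chr2:14229164-14229413, plus strand: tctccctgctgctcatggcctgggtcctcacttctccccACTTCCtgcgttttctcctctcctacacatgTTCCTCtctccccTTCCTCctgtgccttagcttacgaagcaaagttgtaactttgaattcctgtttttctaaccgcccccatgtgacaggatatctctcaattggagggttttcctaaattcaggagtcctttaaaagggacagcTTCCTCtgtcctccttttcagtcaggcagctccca
Folr2, upstream start, chr7:101857191-101857440, minus strand: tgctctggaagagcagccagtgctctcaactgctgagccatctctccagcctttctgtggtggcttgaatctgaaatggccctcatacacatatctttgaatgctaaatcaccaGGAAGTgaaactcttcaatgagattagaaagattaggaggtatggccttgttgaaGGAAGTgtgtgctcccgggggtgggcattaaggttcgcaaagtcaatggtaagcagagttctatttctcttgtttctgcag

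Read position by position without gaps, the lysozyme windows had 152 of 250 bases in common, 92 of them among the 100 bases nearest the start, and the last 50 bases before it were identical. Other combinations of the 10 genes shared 18% to 32% of positions. In both lysozyme windows the match to GGAAGT lies on the reverse strand at 100 to 95 bases before the start. Whether the lysozyme probe sets read both genes was not tested. Mrc1 holds 4 matches and the upstream start of Folr2 holds 2. F13a1 holds 1 match before each of its annotated starts, Cbr2 holds 1, and in Pf4 the motifs overlap just before the start.

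**Figure D5:**
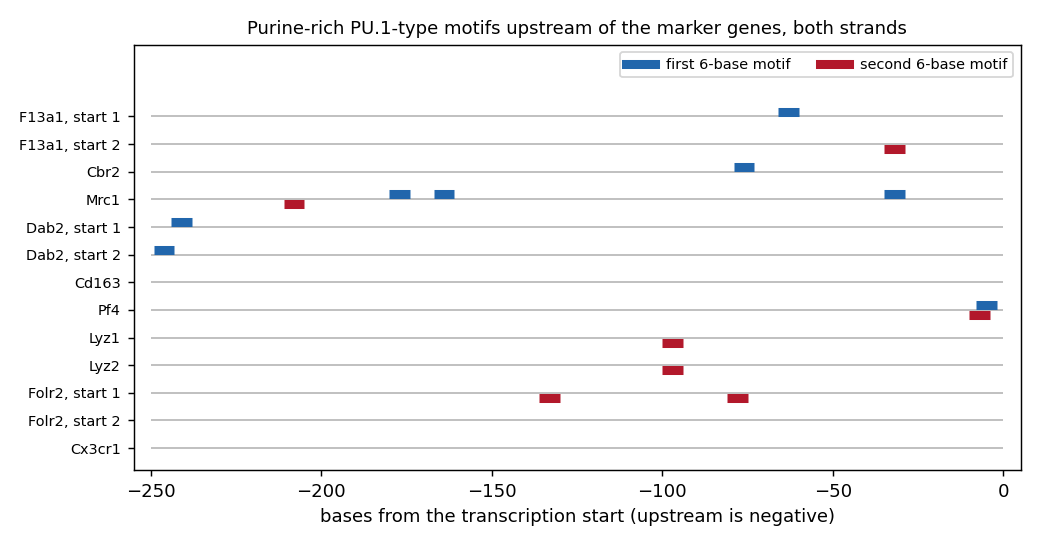
Position of matches to GAGGAA (blue, first motif) and GGAAGT (red, second motif) on either strand in the 250 bases before each annotated start of the 10 genes (x axis, bases from the start; 1 line per window). Matches lie in 10 of the 13 windows, and the windows of Cd163, Cx3cr1 and the downstream start of Folr2 are empty.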

How the data were processed

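RNA from 3 stem cell and 3 total testicular cell samples was labelled and hybridised to 1 array each. The deposited values are log2 probe set summaries, as their range of 1.20 to 13.2 shows, used as they stand. Per the submitters' processing notes MAS5 and RMA were used, but their role and the normalization are not given in the sources used here. The arrays, per the file headers, shared 1 lot, 1 scanner and 1 scan day. The 3 fluidics rounds were inferred from the start times in these headers (starts under 15 minutes apart). The files holding this run information are of another kind of unit and carry no expression value. No probe-level intensities were used. Separately, the number of arrays, 3 in each group, limits the precision.

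Groups and replicate numbers came from the titles. Of 22690 probe sets 64 controls were left out, and 20380 of 22626 had 1 gene, 691 several and 1555 none. Identifiers of 20364 were found in RefSeq (GRCm38.p6), which changed 0 symbols. Each difference is the stem cell mean minus that of the other group. Probe sets were tested with limma 3.58.1 in R 4.3.3 (lmFit, two-sided eBayes with intensity trend, residual degrees of freedom 4 and prior 5.21, Benjamini-Hochberg over all probe sets, threshold 0.05), without a filter on dim values. The background is the 95th percentile of the means of 27 bacterial control probe sets. A probe set not above it on any array of a group gives only a bound.

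The 10 genes and all lists were chosen with earlier results of these data known. Named genes were all 10 with every probe set, the nearest 8 genes to their mean pattern and 1 to each. Beside them stood the 4 largest called and 4 smallest differences of the other macrophage list, and any of the partners and paralogues. Of each other list, up to 2 genes with the highest mean and any called were named. Csf1r, Spi1 and Stra8 could be named whatever their values. Genes named outside this rule are Lin28a, Cdh1, Clec1b, Cd5l, Gpr34, Tmem119 and Sall1, chosen after their values were seen. The test was checked on simulated data with 200 changed probe sets. It recovered 49.3% of log2 changes of 1, 94% of changes of 2 and 100% of changes of 4, with 5 false calls. The changed probe sets were drawn at random, so these rates hold for probe sets of usual spread. The median SD on the stem cell arrays was 0.22 over all probe sets but 1.07 over the 10 genes. A gene that was not called may therefore still differ by about 1, and by more where its replicates spread widely. Cyp17a1 (difference 1.92) and Gpr34 (2.20) were not called.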

Additional observations from a re-analysis of the deposited data

How the results depend on the processing

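The median difference of the 10 genes was not computed with array weights. In every alternative for which it was computed, it stayed between 3.83 and 4.84. These alternatives included other scalings, blocks, probe set choices and leaving out an array (3.83 to 4.81). Of 120 values of single genes under these alternatives, 117 moved by less than the pooled SD between replicates and 0 changed sign. Left out are 3 alternatives (replicate block, dim filter, probe set with the largest difference) that returned the same value for each gene. The 3 values that moved further were Cd163 with the fluidics module as a block (at least 0.67 against background), and Dab2 (2.85) and Lyz1 (2.97) as the mean of all their probe sets. These counts are a weak check. The groups do not overlap for these genes, so leaving out an array could not change a sign. The pooled SD, 0.67 to 0.99, includes stem cell replicate 1, so that Cx3cr1 moving from 1.02 to 0.54 without that array counts as unchanged. The whole-array counts of higher and lower probe sets (316 and 34) moved more: 91 lower with median centring, 844 and 487 with centring on hybridization controls, 1200 and 84 with the round as a block, 0 and 0 with the module as a block, 119 and 6 without the intensity trend, 53 and 0 at a threshold of 0.01, and 853 and 148 with array weights. Leaving out 1 array gave 36 (without total testicular cell replicate 1) to 1365 (without stem cell replicate 3) higher and 0 to 943 lower. For the other macrophage markers (13 higher, 0 lower) the same gave 8 to 15 higher and the module block 0, and centring on hybridization controls called 1 lower, Cd5l (−0.94). The causes were not tested. Whether same-numbered arrays belong together is not given in the labels. Deviations of same-numbered arrays from their group means correlated at −0.01, 0.01 and 0.30, and those of differently numbered arrays at −0.35 to 0.30. Deviations within groups of 3 arrays constrain each other, so these values cannot decide whether the arrays were paired. With the replicate number as a block, 1065 probe sets were higher and 196 lower, with 14 of the other macrophage markers higher. Signal near background limits Cd163, Cx3cr1, 1450822_at of Lyz1 and some markers of other cell types.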
